A study of Mus musculus with 48 samples.

Results

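67NR and T11 are mouse mammary tumour lines that the submitters' column names both mark as mesenchymal and whose labels give the same strain, BALB/C. Their RNA was compared here across all 24054 genes of the count table, in the 3 libraries of 67NR cells and the 3 libraries of T11 cells, which make up 6 of the series' 48 libraries. The members were chosen by line name alone. 67NR cells were at passage 19 and T11 cells somewhere between passages 15 and 20. Both were grown untreated in high-glucose DMEM with 10% fetal bovine serum, and neither label names an introduced allele. Whether the 3 libraries of a line came from separate cultures is not stated, so the p-values measure variation among these libraries only, part of which may be technical. Each line is a single tumour isolate, and a difference between them belongs to these lines and not to a class of tumour. The series also holds 3 libraries from each of 6 further tumour lines, which served to estimate the spread and to show where 67NR and T11 stand, and 24 libraries of sorted myeloid cells that were not used here.

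As background, 67NR was isolated from the same spontaneous BALB/c mammary tumour as 4T1 and forms primary tumours without spreading, whereas T11 comes from a transplant model of mammary tissue lacking the tumour suppressor p53. Carcinoma cells that have passed through an epithelial to mesenchymal transition lose junction and keratin genes and gain vimentin, Zeb and Snail family factors and matrix genes. Such cells can draw monocytes or neutrophils into a tumour through secreted chemokines and colony-stimulating factors.

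The 67NR libraries held 4306005 to 4971319 counts and the T11 libraries 2058329 to 3489631. Levels are counts scaled to library size as CPM, with TMM factors, and each difference is 67NR minus T11 on the log2 scale. The value after ±, called SE, is the size of the difference divided by the square root of the F statistic of its test. It stands in for a standard error. For a gene with few counts in either line it can be smaller than counting error alone, as for Cd24a, with 15 counts in 67NR. Reads assigned to olfactory and vomeronasal receptor genes, which these cells should not transcribe, gave a background of 1381 to 1451 CPM in 67NR and 989 to 1227 CPM in T11, summed over 1459 genes. The 99th percentile of a single receptor gene was 3.86 CPM in 67NR and 3.02 CPM in T11. Of the 252 receptor genes tested, 20 were called higher in 67NR and 3 lower, with a median difference of 0.36, so a small excess in 67NR at a level of a few CPM cannot be told from background. Bulk RNA cannot tell fewer expressing cells from less RNA per cell.

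At an adjusted p below 0.05 (edgeR quasi-likelihood test over the 18348 genes tested), 3917 genes were higher in 67NR, or 21.3%, and 4059 were lower, or 22.1%. By a test that the difference exceeds 2-fold, 685 genes (3.73%) were higher in 67NR and 752 (4.1%) lower, together 7.83%. The median difference over all genes tested was 0.03. In 52.5% of the genes tested the 3 libraries of 67NR and the 3 of T11 did not overlap. Among the 9332 tested genes that exceeded the receptor genes at least 10 times in level per exon base, 541 (5.8%) were higher and 568 (6.09%) lower beyond 2-fold. Every list of genes below is read against these shares.

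**Figure D1:**
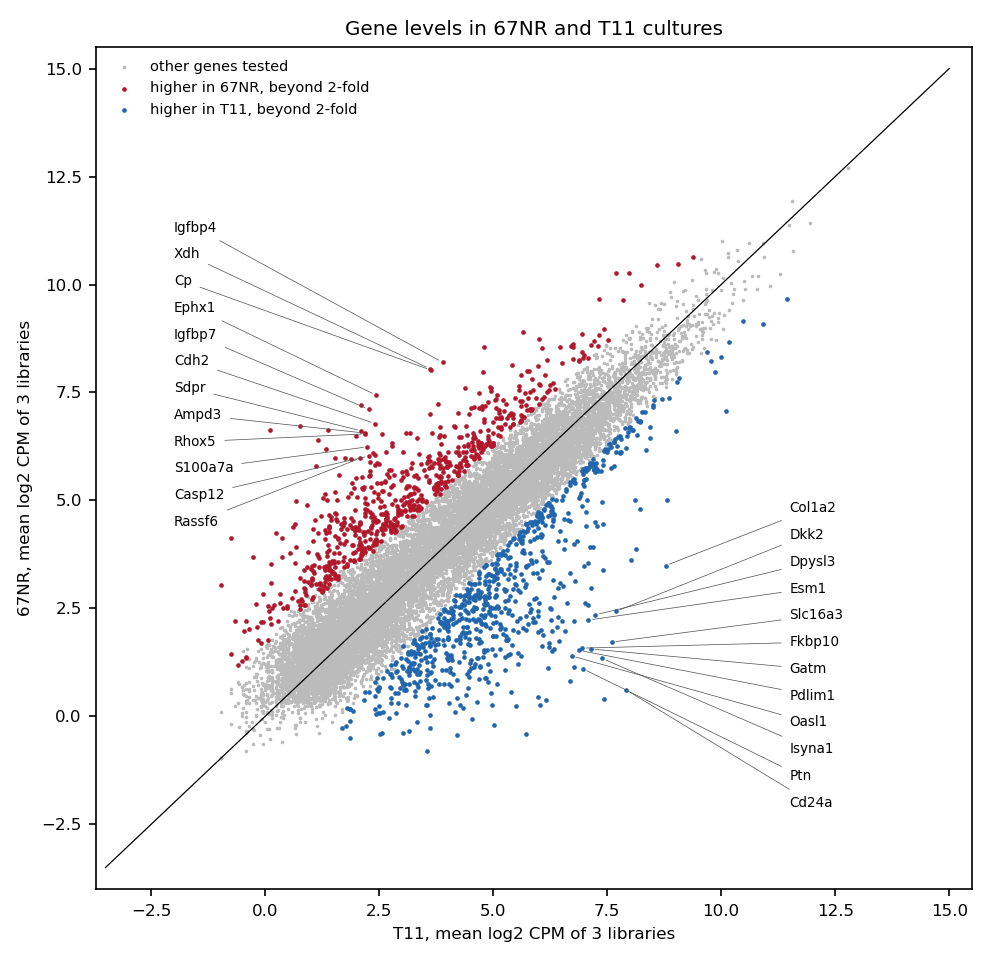
Mean log2 CPM of the 3 T11 libraries (x axis) against that of the 3 67NR libraries (y axis) for 18348 genes. Red and blue points mark the 685 and 752 genes that differ beyond 2-fold. Labels mark the 24 largest differences at a mean log2 CPM of at least 4, non-overlapping levels and no predicted or clone name. The line marks equal levels, and Cd24a, at -7.81, lies farthest from it among the labelled genes.

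Genes beyond 2-fold were ranked by difference. A mean log2 CPM of at least 4, non-overlapping levels and no predicted or clone name were required. These limits left out some genes that differ more, such as Sod3 (6.19) and Cxcl5 (5.45). By this ranking, the 12 genes with the largest excess in 67NR were led by Ephx1, microsomal epoxide hydrolase (chr1:180976210-181020904, mm10). It read 174, 169 and 175 CPM in 67NR and 5.46, 4.51 and 4.73 CPM in T11, a difference of 5.13 ± 0.15 (SE, adjusted p = 1.13e-46). Xdh, xanthine dehydrogenase, read 277, 271 and 246 CPM against 11.6, 10.5 and 13.2 CPM, and Cp, the copper-carrying ferroxidase ceruloplasmin, read 274, 255 and 251 CPM against 10.3, 11.7 and 13.7 CPM. Their differences were 4.51 ± 0.13 and 4.47 ± 0.13. In each of these genes the 67NR libraries lay above every T11 library, which the ranking required. Igfbp7 and Igfbp4, which bind insulin-like growth factors, differed by 4.77 ± 0.17 and 4.32 ± 0.13. Igfbp4 averaged 293 CPM in 67NR and 14.4 CPM in T11, where it was lower than in any of the other 7 lines. Cdh2, which encodes N-cadherin, averaged 110 CPM in 67NR and 5.02 CPM in T11 (difference 4.38 ± 0.17). The remaining genes of the 12 were Sdpr, a caveolar protein gene (4.68 ± 0.18), Rhox5, a homeobox gene of the X-linked reproductive cluster (4.34 ± 0.19), Ampd3, an AMP deaminase (4.25 ± 0.18), S100a7a (4.04 ± 0.18), Rassf6 (3.93 ± 0.21) and Casp12 (3.81 ± 0.21).

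On the T11 side the same limits left out Tmsb4x (-7.42) and Marcksl1 (-6.33), among others. By this ranking, the 12 genes with the largest excess in T11 were led by Cd24a (chr10:43578284-43584265), a surface glycoprotein gene used to mark luminal epithelial cells. It read 1.21, 0.609 and 1.35 CPM in 67NR and 241, 243 and 241 CPM in T11, a difference of -7.81 ± 0.18 (SE, adjusted p = 4.76e-55). The 67NR value is within the range of receptor genes. Isyna1, which makes inositol phosphate, averaged 2.02 CPM in 67NR and 167 CPM in T11 (-6.34 ± 0.16). Ptn, the secreted growth factor pleiotrophin, averaged 1.67 against 125 CPM (-6.20 ± 0.19), and Slc16a3, the lactate exporter MCT4, 2.83 against 194 CPM (-6.07 ± 0.16). Col1a2, which encodes a chain of type I collagen, read 10.1, 9.74 and 12.6 CPM in 67NR and 465, 424 and 433 CPM in T11 (-5.35 ± 0.12). Fkbp10, a prolyl isomerase of collagen folding, averaged 2.51 against 123 CPM (-5.60 ± 0.18). Dkk2, a secreted Wnt pathway modulator, differed by -5.37 ± 0.14, and Oasl1, an interferon-stimulated gene, by -5.33 ± 0.18. The others were Gatm, of creatine synthesis (-5.83 ± 0.18), Pdlim1 (-5.58 ± 0.17), Esm1, a secreted proteoglycan (-5.02 ± 0.17), and Dpysl3 (-5.02 ± 0.15).

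**Figure D2:**
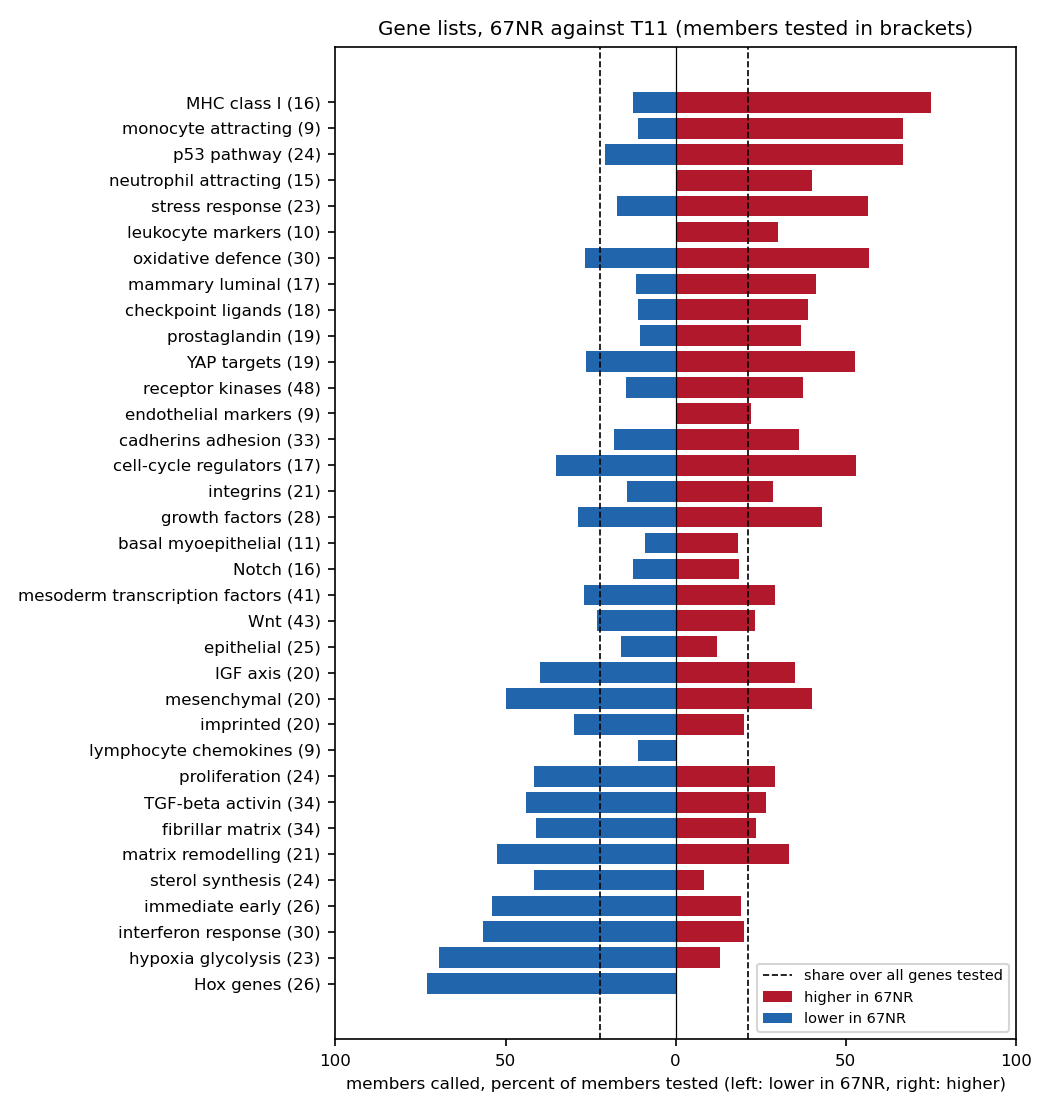
Share of the tested members of a gene list (number tested in brackets) that was called higher in 67NR (red, right) or lower in 67NR (blue, left), in percent. Dashed lines mark the shares over all genes tested, 21.3% higher and 22.1% lower. The fat cell, muscle and X chromosome dose lists, which have the fewest members tested, are not drawn. MHC class I (12 of 16 higher) and Hox genes (19 of 26 lower) stand at opposite ends.

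Both lines carried mesenchymal markers and had little Epcam and Cdh1, which define epithelial cells. Vim, the intermediate filament of mesenchymal cells, read 2691, 2729 and 2595 CPM in 67NR and 2928, 2905 and 2822 CPM in T11, and its difference did not pass the test (-0.11 ± 0.08, adjusted p = 0.309). Epcam stood at 2.6 and 2.67 CPM, and Cdh1, which encodes E-cadherin, at 6.37 and 8.6 CPM, both in the range of background or slightly above it and neither called. Cdh1 was called lower in 67NR without 67NR replicate 3 (-0.73, adjusted p = 0.025). Of the 20 mesenchymal genes tested, 8 were higher and 10 lower in 67NR, 5 and 4 of them beyond 2-fold, with a median of -0.25. Cdh2 had the largest excess of the list in 67NR. Pdgfra, a receptor of fibroblast-like cells, averaged 87 against 23.1 CPM (1.90 ± 0.12), Fn1, fibronectin, 1403 against 386 CPM (1.86 ± 0.09), Pdpn, podoplanin, 289 against 91.9 CPM (1.64 ± 0.09), and S100a4 1599 against 672 CPM (1.25 ± 0.10). Zeb1 was higher in 67NR by 0.44 ± 0.10 and Zeb2 by 1.01 ± 0.10. T11 had more Twist2, 38.1 against 5.43 CPM (-2.81 ± 0.21), more Acta2, smooth muscle actin, 28.1 against 5.95 CPM (-2.26 ± 0.18), and more Tcf4, 210 against 76.4 CPM (-1.46 ± 0.10). Foxc2 was also lower in 67NR beyond 2-fold, at 1.13 against 5.16 CPM.

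A few epithelial transcripts were higher in T11. Of the 25 epithelial genes, 3 were called higher in 67NR and 4 lower, and the median was -0.12. The 3 that differed beyond 2-fold were Cd24a, Krt18 and Dsp. Krt18, a simple-epithelium keratin, read 4.02, 1.62 and 2.94 CPM in 67NR and 79.7, 79.1 and 65.3 CPM in T11 (-4.70 ± 0.18), while its partner Krt8 stood at 3.02 and 1.72 CPM and was not called. Dsp, desmoplakin of desmosomes, averaged 10.7 against 44.9 CPM (-2.07 ± 0.16). The summed level of the list was 85.1 to 94.2 CPM in 67NR and 418 to 448 CPM in T11. Most of that gap lay in these 3 genes, with Cd24a alone at 1.06 against 242 CPM, and 18 of the 25 genes were not called. Grhl2, Krt7 and Lad1 were called higher in 67NR at 14.5, 3.71 and 3.99 CPM. Of 11 basal and myoepithelial genes tested, 2 were higher and 1 lower. Among 17 luminal regulators 7 were higher and 2 lower. Csn3, the milk protein kappa casein, read 78.6, 88.9 and 85.8 CPM in 67NR and 0.964, 3.31 and 1.42 CPM in T11 (5.39 ± 0.23), Gata3, a luminal transcription factor, averaged 33.8 against 8.45 CPM (1.97 ± 0.17), and Tbx3 18.1 against 67.1 CPM (-1.90 ± 0.15).

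Genes of the p53 pathway were mostly higher in 67NR. p53 responds to DNA damage and other stress by switching on genes that arrest the cell cycle or kill the cell, and among these Mdm2 encodes the ligase that degrades p53. Of the 24 genes on the list, 16 were called higher in 67NR and 5 lower, against 21.3% and 22.1% over all genes, and 7 and 4 of them passed the test beyond 2-fold. The median difference was 0.86, beside 0.03 over all genes. Trp53 itself (chr11:69580359-69591873) read 143, 160 and 134 CPM in 67NR and 27.3, 33.1 and 24.1 CPM in T11, a difference of 2.35 ± 0.12 (SE, adjusted p = 1.86e-30). The groups did not overlap. Counts are per gene and do not show which exons the T11 reads came from. Cdkn1a, the cyclin-dependent kinase inhibitor p21 and the classic p53 target, read 96.7, 90.9 and 75.4 CPM in 67NR and 8.68, 10.2 and 9.94 CPM in T11 (3.19 ± 0.16).

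The other members beyond 2-fold in the same direction were Eda2r, a death receptor of the TNF receptor family, at 76 against 6.42 CPM (3.56 ± 0.17), Trp53inp1 at 43.6 against 5.67 CPM (2.95 ± 0.19), Ccng1, cyclin G1, at 424 against 63.9 CPM (2.71 ± 0.10), Mdm2 at 277 against 63.2 CPM (2.13 ± 0.11) and Phlda3, an inhibitor of Akt, at 66 against 18.4 CPM (1.86 ± 0.14). Each of these lay higher in every 67NR library than in any T11 library. Bax, Aen, Zmat3, Polk, Sesn2, Gtse1, Ckap2, Ei24 and Mdm4 were higher by 0.64 to 1.30. In T11, 3 genes of cell death on the list were higher. Pmaip1, which encodes the BH3 protein Noxa, read 1.21, 1.01 and 2.71 CPM in 67NR and 10.3, 11.4 and 8.52 CPM in T11 (-2.65 ± 0.30), Tnfrsf10b, a TRAIL receptor, averaged 3.28 against 19.4 CPM (-2.55 ± 0.22) and Perp 2 against 10.3 CPM (-2.28 ± 0.28). The 67NR levels of these 3 genes are in the range of background. Sesn1 was also lower in 67NR (-0.47 ± 0.15), as was the noncoding gene Pvt1, whose values stand with Myc, and Bbc3, Fas and Rrm2b were not called.

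Among all 8 lines, Trp53 was lowest in 3, T11 (28.2 CPM), 4T1 (27.5 CPM) and 2208L (26.6 CPM), and lay between 87.2 and 182 CPM in the other 5. Cdkn1a stood at 87.7 CPM in 67NR and 147 CPM in PyMT-N, and at 5.33 to 30.2 CPM in the remaining lines. 67NR ranked 2 of 8 for Trp53, Cdkn1a, Mdm2, Ccng1 and Trp53inp1, behind PyMT-N each time, and first for Eda2r. 4T1, which shares its tumour of origin with 67NR, had 5.33 CPM of Cdkn1a, 56.8 CPM of Ccng1 and 46.8 CPM of Mdm2. These levels in the other lines are descriptions without a test.

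Regulators of the G1 phase differed in both directions, with 9 of 17 tested members higher in 67NR and 6 lower. Cdkn2b, the CDK4 inhibitor p15, read 2.01, 3.04 and 2.03 CPM in 67NR and 31.2, 24.4 and 26.5 CPM in T11 (-3.51 ± 0.26). Cdkn2a, whose transcripts encode p16 and p19Arf, read 4.63, 5.89 and 4.06 CPM against 12.5, 18.6 and 17.5 CPM (-1.72 ± 0.27). Both genes had counts in 67NR, T11 and 2208L, while 4T1, AT3, E0771, PyMT-M and PyMT-N were listed at 0 CPM for each. In 67NR the brakes and motors of G1 that stood higher included Ccnd1, cyclin D1, at 1426 against 534 CPM (1.42 ± 0.09), Rb1 at 28.6 against 9.94 CPM (1.51 ± 0.18), Rbl1 (1.20 ± 0.11), Cdk6 (1.02 ± 0.13) and Cdk4 (0.80 ± 0.09). Cell cycle and replication genes were split, 7 higher and 10 lower of 24. Ccne1 and Ccne2, the E cyclins, were lower in 67NR beyond 2-fold (-1.89 ± 0.13 and -1.49 ± 0.16), and Mki67 was higher by 0.96 ± 0.09.

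**Figure D3:**
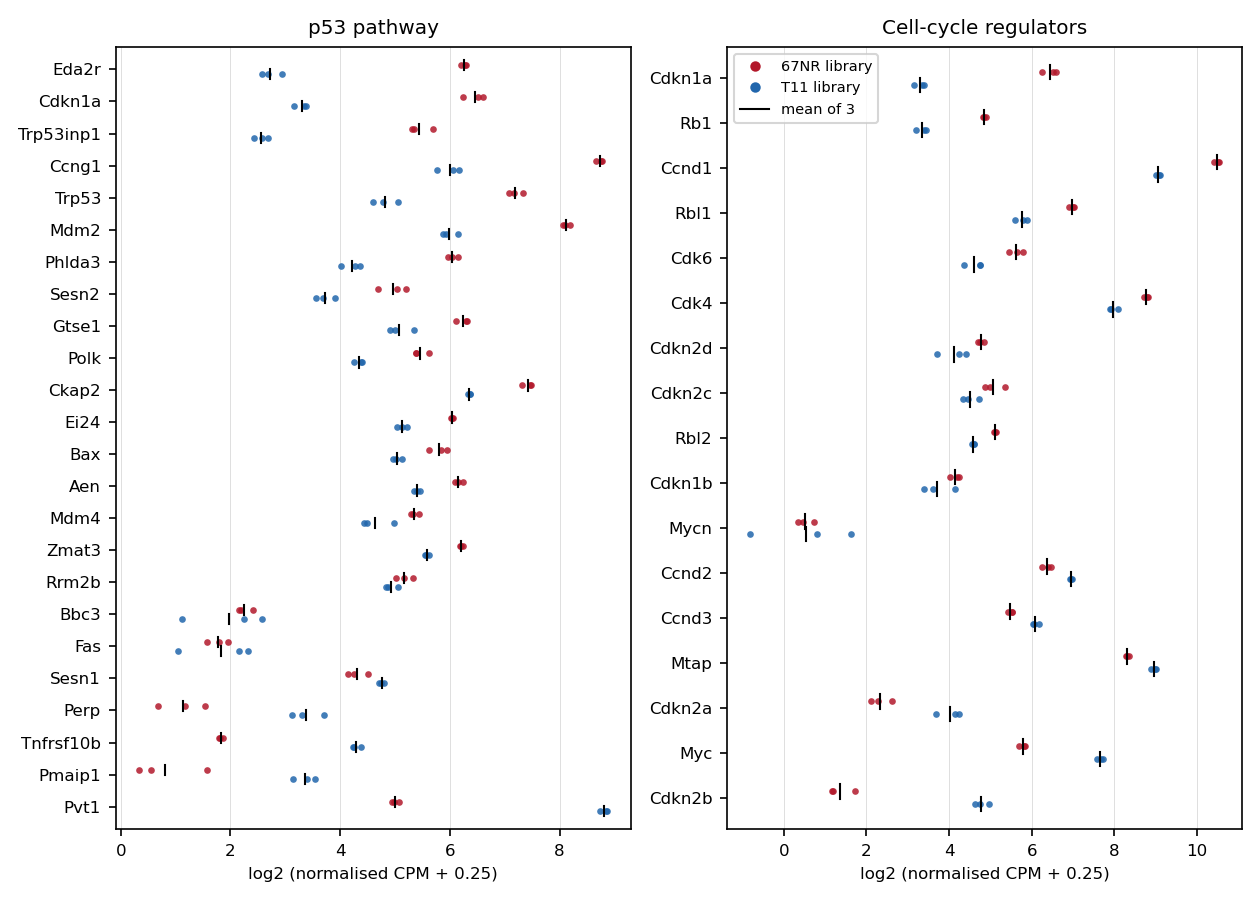
Levels of the p53 pathway genes (left) and of G1 regulators (right) in each of the 3 67NR (red) and 3 T11 (blue) libraries, on a log2 axis of normalised CPM with 0.25 added; bars mark means of 3. For 16 of the 24 p53 pathway genes all 67NR libraries lie above all T11 libraries, and for 5 all lie below. Over all genes tested, the libraries of the lines do not overlap in 52.5%.

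Myc and the noncoding genes beside it were higher in T11. Myc (chr15:61985391-61990374), a transcription factor of growth, read 57.1, 55.8 and 51.9 CPM in 67NR and 210, 203 and 192 CPM in T11 (-1.88 ± 0.10). Pvt1, the long noncoding gene that follows Myc and a p53 target, read 31.2, 30.4 and 33.2 CPM against 467, 428 and 458 CPM (-3.83 ± 0.10). The noncoding gene before it, D030024E09Rik, averaged 3.31 against 68.7 CPM (-4.33 ± 0.21), and H2afy3, which lies within Pvt1, 1.2 against 33.3 CPM (-4.78 ± 0.26). Since strand is not given for the counts, reads of H2afy3 and Pvt1 cannot be told apart. Fam49b, the next gene tested beyond the Gsdmc cluster, differed by -0.32 ± 0.10 and Asap1 after it by 0.59 ± 0.10. These neighbours were examined after the Pvt1 value had been seen. 67NR had the least Myc of the 8 lines and T11 the most, 55 and 202 CPM.

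More interferon-response genes were lower than higher in 67NR, and more MHC class I genes were higher than lower. Type I interferon acts through a complex that holds Stat2 and Irf9 at a promoter element called ISRE, and interferon gamma acts at a GAS element to raise Irf1, which in turn raises the class I chains. Of the 30 interferon-response genes tested, 17 were lower in 67NR, 9 of them beyond 2-fold, and 6 were higher, each by less than the 2-fold test requires, with a median of -0.88. Isg15, a ubiquitin-like modifier, read 0, 0.609 and 0.677 CPM in 67NR, 6 counts in all, and 27.6, 35.5 and 32.2 CPM in T11 (-6.14 ± 0.31, adjusted p = 6.74e-31). Ifit1, which binds viral RNA, read 2.61, 1.62 and 2.94 CPM against 79.7, 76.4 and 76.2 CPM (-5.01 ± 0.20). Oasl1 averaged 2.52 against 105 CPM, Oasl2 2.6 against 30.9 CPM (-3.52 ± 0.23), Ifih1, the RNA sensor MDA5, 5.13 against 56 CPM (-3.44 ± 0.16) and Rsad2, viperin, 3.71 against 20.9 CPM (-2.49 ± 0.23). Rtp4, Cmpk2 and Dhx58 completed the 9. In 7 of these 9 genes the 67NR level was in the range of receptor genes. 67NR ranked last of the 8 lines for Isg15, Ifit1, Oasl2, Ifih1, Rsad2 and Cmpk2. Counting only the members above background, 10 of 19 were lower in 67NR and 5 higher, beside 35.3% lower and 29.5% higher over all genes above background. That limit is on the mean over both lines, so a gene at receptor level in 67NR can pass it through T11 alone. The filtered count is therefore not independent of the difference.

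The interferon-response genes with more RNA in 67NR included Irf1, Gbp2, Xaf1, Ifi35 and Ifit2. Irf1 read 44.8, 39 and 35.2 CPM in 67NR and 15.1, 19.5 and 14.7 CPM in T11 (1.25 ± 0.15). It lay above T11 in every 67NR library. Stat2 (0.04 ± 0.16) and Ddx58, the RNA sensor RIG-I (0.14 ± 0.12), were not called.

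The promoters of Isg15 and Ifit1, the T11 genes with the largest differences whose promoter holds an ISRE match, are shown beside that of Irf1, the 67NR gene with the largest difference, to let the elements be compared. Each is the 250 bases before the RefSeq transcript start (GRCm38.p6), 5′ to 3′ on the strand of the gene. Isg15 lies at chr4:156200819-156201068 on the minus strand, Ifit1 at chr19:34640639-34640888 and Irf1 at chr11:53769764-53770013, both on the plus strand. Capitals mark matches to GAAA, any 2 bases and GAAA (ISRE) or to TTC, any 3 bases and GAA (GAS) on either strand, overlaps merged.
Isg15: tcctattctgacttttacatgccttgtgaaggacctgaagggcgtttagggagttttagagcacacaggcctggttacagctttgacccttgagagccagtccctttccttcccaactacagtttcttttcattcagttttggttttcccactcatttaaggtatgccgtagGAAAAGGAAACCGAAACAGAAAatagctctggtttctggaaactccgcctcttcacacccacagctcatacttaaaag
Ifit1: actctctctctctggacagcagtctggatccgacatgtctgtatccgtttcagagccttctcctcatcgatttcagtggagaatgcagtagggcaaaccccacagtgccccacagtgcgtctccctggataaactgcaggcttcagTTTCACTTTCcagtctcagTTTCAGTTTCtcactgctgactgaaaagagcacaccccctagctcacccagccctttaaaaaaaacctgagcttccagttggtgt
Irf1: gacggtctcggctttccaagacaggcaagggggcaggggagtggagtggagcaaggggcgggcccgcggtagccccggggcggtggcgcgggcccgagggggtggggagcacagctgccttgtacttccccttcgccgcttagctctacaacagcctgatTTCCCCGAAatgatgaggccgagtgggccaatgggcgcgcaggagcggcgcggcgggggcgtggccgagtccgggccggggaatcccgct
Isg15 held 3 overlapping ISRE matches, the first starting 78 bases before the transcript start. Ifit1 held 2 on the opposite strand, 104 and 85 bases before the start, and Irf1 held 1 GAS match, whose pattern matches on both strands, 90 bases before it. A promoter was at hand for 14 of the 17 interferon-response genes lower in 67NR, and 6 of them (42.9%) held an ISRE match, namely Isg15, Ifit1, Ifit3, Oas1a, Rsad2 and Gbp3. Of the 5 with a promoter among those higher in 67NR, 1 held an ISRE match (Gbp2) and 2 a GAS match (Irf1 and Ifit2), while 1 of the 14 held a GAS match (Oas1a). Of 10 class I genes higher in 67NR with a promoter, 1 held an ISRE match (B2m) and 1 a GAS match (H2-M3). Over 27025 genes with a promoter the shares were 3.46% for ISRE and 8.13% for GAS. A match describes the letters only, and Oasl1 (-5.33) has none in this window and was left out for that. Since Isg15 and Ifit1 were chosen for a match, the promoters shown are examples and no test. The list itself was made of genes known to respond to interferon.

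Most class I genes tested were higher in 67NR. These genes encode the chains that present peptides to CD8 T cells and the machinery that cuts and loads the peptides. Of 16 tested, 12 were higher in 67NR and 2 lower, with a median of 1.39. Beyond 2-fold, 7 were higher, or 3 by DESeq2. H2-K1 (chr17:33996017-34000347) read 244, 239 and 231 CPM in 67NR and 53.7, 47.2 and 43.5 CPM in T11 (2.30 ± 0.10), and H2-D1 (chr17:35262730-35267499) read 196, 200 and 188 CPM against 24.7, 38.2 and 29.8 CPM (2.64 ± 0.14). Class I genes are near copies of each other, so the split of reads between them is uncertain. B2m, the shared light chain, averaged 426 against 252 CPM (0.75 ± 0.11). The peptide transporters Tap1 and Tap2 and the loading factor Tapbp were higher by 1.59 ± 0.25, 1.69 ± 0.25 and 1.32 ± 0.12, and Nlrc5, the class I transactivator, by 0.88 ± 0.14. The immunoproteasome subunits Psmb8 and Psmb10 went the other way (-1.64 ± 0.49 and -1.12 ± 0.24), Psmb8 at background levels. T11 ranked 7 of 8 lines for H2-K1 and for H2-D1. Of 18 genes for checkpoint and activating ligands 7 were higher in 67NR and 2 lower. Ulbp1 and H60b, ligands of the NKG2D receptor of killer cells, averaged 91.1 against 13.9 CPM (2.74 ± 0.15) and 47.7 against 10.1 CPM (2.31 ± 0.19), Lgals9, galectin 9, 61.5 against 14.5 CPM (2.06 ± 0.14), and Cd276, B7-H3, 4.32 against 14.9 CPM (-1.80 ± 0.23).

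**Figure D4:**
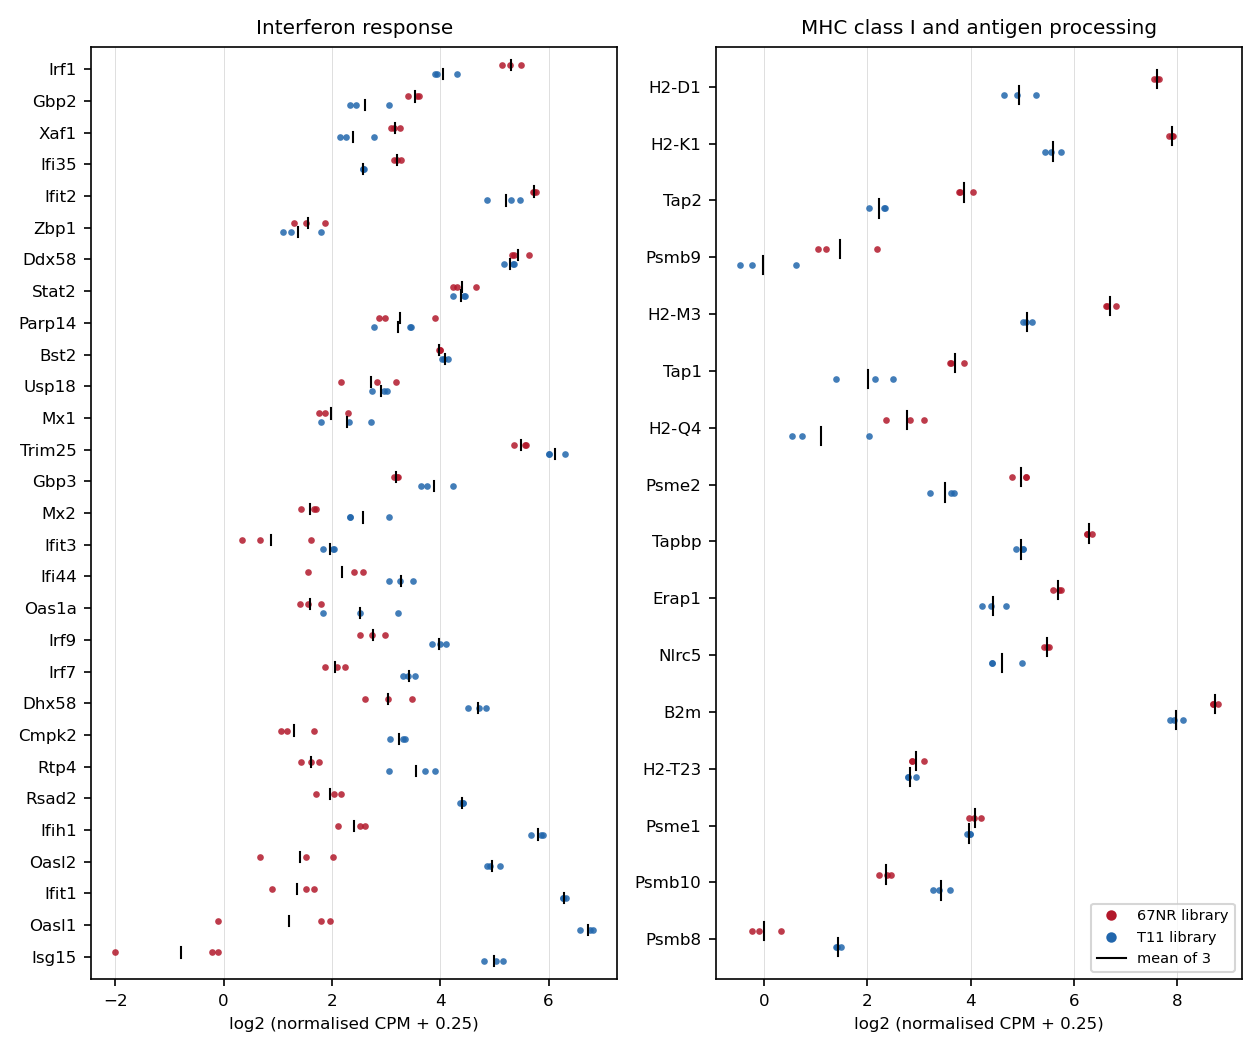
Levels of interferon-response genes (left) and of MHC class I and antigen-processing genes (right) in each 67NR (red) and T11 (blue) library, on a log2 axis of normalised CPM with 0.25 added; bars mark means of 3. Isg15, Oasl1 and Ifit1 lie far to the right in T11, and H2-D1 and H2-K1 in 67NR.

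Among signals that recruit myeloid cells, more genes were called higher in 67NR than lower. Of 9 tested genes for monocyte and macrophage signals, 6 were higher in 67NR and 1 lower. Ccl2, the main monocyte chemokine, read 122, 122 and 119 CPM in 67NR and 36.3, 32.5 and 38.8 CPM in T11 (1.77 ± 0.12), Ccl7, its neighbour in the chemokine cluster, averaged 26.4 against 7.41 CPM (1.83 ± 0.22), and Csf1, the macrophage growth factor, read 411, 424 and 402 CPM against 155, 161 and 130 CPM (1.46 ± 0.10). Il34, which shares the Csf1 receptor, averaged 26.4 against 7.7 CPM (1.87 ± 0.20) and Cxcl12 116 against 52.2 CPM (1.13 ± 0.12). 67NR had the highest level of Ccl2, Ccl7, Csf1 and Cxcl12 among the 8 lines. The exception was Ccl5, a chemokine of T cells and monocytes, at 1.81, 1.22 and 3.61 CPM in 67NR and 23.1, 24.1 and 26.5 CPM in T11 (-3.47 ± 0.28). Mif and Cx3cl1 were not called.

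Of 15 tested genes for neutrophil signals, 6 were higher in 67NR and 0 lower by edgeR, with 0 lower also at an unadjusted p under 0.05 and by DESeq2. Cxcl5, a Cxcr2 ligand (chr5:90759360-90761624), read 96.3, 103 and 96 CPM in 67NR and 2.89, 2.11 and 1.42 CPM in T11 (5.45 ± 0.22). Cxcl1 read 9.45, 11.6 and 8.81 CPM against 2.25, 1.8 and 2.37 CPM (2.23 ± 0.32), and Lif, a cytokine of the IL-6 family, 16.9, 17.2 and 20.5 CPM against 2.89, 1.8 and 4.26 CPM (2.68 ± 0.25). These 3 passed the test beyond 2-fold. Csf2, Ppbp and Cxcl15 were also called, at 1.98, 4.79 and 4.35 CPM in 67NR, beside a 99th percentile of 3.86 CPM for receptor genes. Without T11 replicate 1 the adjusted p of Csf2 was 0.0505. Csf3, the granulocyte growth factor, stood at 1.04 and 0.816 CPM and Cxcl2 at 1.25 and 0.53 CPM, and neither was called. Of 9 lymphocyte chemokines tested, 1 was called, Cxcl10 at 6.04 against 15.7 CPM (-1.37 ± 0.24).

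Most tested Hox genes, which set position along the body axis, were lower in 67NR. Of 39 Hox genes 26 were tested and 13 fell below the limit on low counts. By edgeR 19 were lower in 67NR, 12 of them beyond 2-fold, and 0 were higher, as was so at an unadjusted p under 0.05 and by DESeq2. The median over those tested was -1.82. Hoxa9, Hoxa10 and Hoxa11 are neighbours on chr6. Hoxa9 read 4.02, 2.03 and 1.35 CPM in 67NR and 44.7, 48.4 and 45.4 CPM in T11 (-4.19 ± 0.24), Hoxa10 0.603, 1.22 and 1.13 CPM against 30.5, 29.5 and 31.7 CPM (-4.92 ± 0.26), and Hoxa11 0.402, 1.62 and 0.903 CPM against 15.7, 26.5 and 21.3 CPM (-4.40 ± 0.38). Genes of the other clusters beyond 2-fold included Hoxd8, at 0.84 against 17.9 CPM (-4.36 ± 0.31), and Hoxc6, at 0.942 against 16.1 CPM (-3.99 ± 0.37). The 67NR levels of these genes are those of receptor genes. 8 of the 26 stood above background in the mean of the 6 libraries, which their T11 levels alone can bring about. T11 had the most Hoxa9, Hoxa10, Hoxa11 and Hoxc6 of the 8 lines, while Hoxa10 also reached 19.5 CPM in 2208L and 14.6 CPM in 4T1.

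Other transcription factors of mesenchyme were split, 12 higher and 11 lower of 41 tested, with 6 beyond 2-fold each way. T11 had more Osr1 (-3.75 ± 0.28), Sox11 (-3.19 ± 0.25), Tbx3 and Eya1 (-1.82 ± 0.20). 67NR had more Msx2 (3.26 ± 0.39), Scx, scleraxis of tendon (2.21 ± 0.24), Gata4 (2.01 ± 0.32), Ebf1 (1.94 ± 0.24), Sox9, the cartilage and mammary progenitor factor (1.52 ± 0.14), and Foxd1 at 6.6 against 0.773 CPM (2.97 ± 0.49).

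Fibrillar matrix genes differed in both directions. Of 34 tested, 14 were lower in 67NR, 10 of them beyond 2-fold, and 8 were higher, 1 beyond 2-fold, with a median of -0.23. Col1a2 led. Col3a1, type III collagen, read 14.3, 13 and 15.6 CPM in 67NR and 303, 279 and 260 CPM in T11 (-4.30 ± 0.12), Thbs2, thrombospondin 2, averaged 9.98 against 169 CPM (-4.08 ± 0.13), Col6a3 27.1 against 296 CPM (-3.45 ± 0.11) and Fbn1, fibrillin 1, 20.8 against 132 CPM (-2.68 ± 0.12). Higher in 67NR were Col8a1, at 305 against 71.9 CPM (2.08 ± 0.10), and the basement membrane chains Col4a1 and Col4a2 by 1.10 ± 0.10 and 0.91 ± 0.11. Of 21 remodelling genes 11 were lower and 7 higher in 67NR. T11 had more Timp3, a matrix-bound protease inhibitor, at 261 against 11.7 CPM (-4.48 ± 0.13), more Mmp2, gelatinase A, at 52.5 against 4.58 CPM (-3.52 ± 0.18), and more of the plasminogen activators Plau (-2.60 ± 0.22) and Plat (-1.42 ± 0.13). 67NR had more Mmp3, stromelysin 1, at 44.2, 43.8 and 47.9 CPM against 3.54, 3.61 and 3.31 CPM (3.68 ± 0.22), and more Mmp9 at 11.9 against 3.4 CPM (1.80 ± 0.28).

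In the TGF-beta, activin and BMP pathway 15 of 34 tested genes were lower in 67NR and 9 higher, 8 and 2 of them beyond 2-fold. Ligands and extracellular antagonists with more RNA in T11 included Bmp2 at 73.7 against 1.69 CPM (-5.44 ± 0.23), Tgfb1 at 38.2 against 6.02 CPM (-2.68 ± 0.17), the follistatin genes Fstl1 (-4.51 ± 0.14) and Fst (-3.89 ± 0.16), and Grem1, gremlin, a BMP antagonist (-3.30 ± 0.32). Id1, a BMP target, read 37.4, 38.8 and 31.2 CPM in 67NR and 123, 122 and 119 CPM in T11 (-1.76 ± 0.11). Signal transducers and receptors with more RNA in 67NR were Smad3, at 103 against 35.8 CPM (1.53 ± 0.12), and Tgfbr3, betaglycan (1.53 ± 0.13). Wnt pathway genes were split, 10 higher and 10 lower of 43, close to the shares over all genes, and 5 were lower beyond 2-fold: Dkk2, Fzd6 (-3.75 ± 0.18), Wnt7b (-2.50 ± 0.19), Fzd7 (-1.98 ± 0.16) and Tcf7 (-1.87 ± 0.23). Sfrp1, a secreted Wnt inhibitor, was higher at 11 against 1.61 CPM (2.72 ± 0.32). Of 16 Notch genes 3 were higher and 2 lower. Of 19 YAP and TEAD genes 10 were higher and 5 lower. Vgll3, a TEAD cofactor, averaged 31.4 against 2.08 CPM (3.96 ± 0.28) and Tead2 11.6 against 74.3 CPM (-2.69 ± 0.14).

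Growth factor genes differed in both directions. Of 28 growth factor genes tested 12 were higher in 67NR and 8 lower. 67NR had more of the EGF-family ligands Ereg, at 205, 197 and 204 CPM against 52.1, 46.6 and 42.6 CPM (2.09 ± 0.10), Btc (1.67 ± 0.20) and Nrg1 (2.67 ± 0.21), although Areg (-0.94) and Tgfa (-1.41) of that family were lower. It also had more Kitl, stem cell factor, at 475 against 49.9 CPM (3.25 ± 0.11), and Gdnf, the Ret ligand, at 32.7 against 1.99 CPM (4.10 ± 0.27). For Ereg, Btc, Nrg1, Kitl and Gdnf, 67NR ranked first of the 8 lines. T11 had more of the heparin-binding factors Ptn and Mdk (-4.49 ± 0.53), of Gas6, a ligand of Axl and Mertk (-2.68 ± 0.18), of Fgf7 (-2.90 ± 0.29) and of Pdgfc (-1.87 ± 0.19). Of 48 receptor kinases 18 were higher and 7 lower in 67NR, and the receptor gene background was also higher in 67NR. Pdgfra, Fgfr2 and Epha7 passed beyond 2-fold upward, and Ptk7 (-2.77 ± 0.15) and Mertk (-1.60 ± 0.20) downward. In the insulin-like growth factor axis 7 of 20 were higher and 8 lower, led by Igfbp7 and Igfbp4 in 67NR and Igfbp6, at 65.2 against 3.49 CPM, in T11 (-4.22 ± 0.18). Igf2 and H19, fetal imprinted genes, had 41 and 11 counts in the 3 67NR libraries and 9 and 3 in those of T11, too few to be tested. Of 20 imprinted genes tested 4 were higher and 6 lower, and the 4 beyond 2-fold, Peg10 (-4.54 ± 0.21), Plagl1 (-2.85 ± 0.22), Sgce (-2.80 ± 0.25) and Mest (-1.87 ± 0.32), were all higher in T11.

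Glycolysis and hypoxia-induced genes were lower in 67NR in 16 of 23 cases and higher in 3, with a median of -0.52. Beside Slc16a3, these were led by Pdk1, which keeps pyruvate from mitochondria, at 7.84, 10.1 and 8.13 CPM in 67NR and 67.2, 67.7 and 55.8 CPM in T11 (-2.87 ± 0.14), P4ha2, a collagen prolyl hydroxylase (-2.55 ± 0.18), Ldha, lactate dehydrogenase A, at 815 against 2796 CPM (-1.78 ± 0.09), and Pgam1 (-1.37 ± 0.10). 67NR ranked last of the 8 lines for Pdk1, P4ha2, Ldha, Pgam1 and Hk2. Ndrg1, a hypoxia-induced gene, went the other way, at 141 against 22.3 CPM (2.66 ± 0.12).

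Genes of oxidative defence were higher in 67NR in 17 of 30 cases and lower in 8, and 8 against 1 passed beyond 2-fold. Sod3, the extracellular superoxide dismutase, read 106, 104 and 105 CPM in 67NR and 1.93, 1.5 and 0.473 CPM in T11 (6.19 ± 0.23). It stood outside the 24 genes above because its mean log2 CPM was under 4. Mgst1 (4.57 ± 0.28), Gstm2 (3.51 ± 0.21), Gstt1 (3.27 ± 0.33) and Gstm1 (2.51 ± 0.14), of glutathione transfer, and Aldh3a1, an aldehyde dehydrogenase (3.42 ± 0.19), were also higher. The Gstm genes are close copies, so reads may be shared between them. Prdx6 was lower in 67NR (-1.35 ± 0.10). Nqo1 (-1.26 ± 0.17) and Hmox1 (-0.96 ± 0.19) were lower in 67NR as well. In the list of ER stress and amino acid response genes 13 of 23 were higher and 4 lower. Trib3, Ddit3 and Chac1, targets of ATF4, differed by 2.88 ± 0.19, 2.53 ± 0.21 and 1.91 ± 0.21, and Xbp1 by 1.36 ± 0.12. Ddit3, which encodes CHOP, read 37.4, 35.9 and 36.1 CPM in 67NR and 4.18, 9.92 and 3.79 CPM in T11. Cholesterol synthesis genes were lower in 10 of 24 cases and higher in 2, with a median of -0.16 and 0 beyond 2-fold. Of the 22 above background, 10 were lower and 2 higher, beside 35.3% and 29.5% of all genes above background. Immediate early genes were lower in 14 of 26 and higher in 5, with Spry4, a feedback inhibitor of receptor kinase signals, at 4.46 against 48.2 CPM (-3.42 ± 0.18). Of 19 prostaglandin and leukotriene genes 7 were higher and 2 lower, and Alox5ap, of leukotriene synthesis, averaged 18.4 against 0.673 CPM (4.65 ± 0.40).

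Adhesion genes differed in both directions. Of 33 cadherins and related genes 12 were higher in 67NR and 6 lower, 7 and 4 beyond 2-fold. Beside Cdh2, 67NR had more Pcdh9, at 49.9, 45.1 and 48.3 CPM against 1.61, 2.71 and 3.79 CPM (4.19 ± 0.24), Cadm1 at 185 against 30.5 CPM (2.59 ± 0.11) and L1cam (1.97 ± 0.19). T11 had more Vcam1, the ligand of leukocyte integrin alpha 4, at 112, 115 and 106 CPM against 9.05, 8.93 and 7 CPM (-3.73 ± 0.14), Alcam (-2.73 ± 0.14), Cdh13 (-3.73 ± 0.20) and Jam3 (-2.53 ± 0.25). Of 21 integrin genes 6 were higher and 3 lower. Itgb2, the beta chain of leukocyte integrins, read 65, 72.9 and 68.4 CPM in 67NR and 6.75, 5.41 and 5.21 CPM in T11 (3.55 ± 0.18).

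Of 14 further leukocyte markers 10 were tested, and 3 were higher in 67NR, or 1 by DESeq2. Their summed level was 63.9 to 74.2 CPM in 67NR and 41.2 to 48.3 CPM in T11. Lyz2, lysozyme of myeloid cells, was the 1 member beyond 2-fold, at 19.7, 16.2 and 14.9 CPM against 2.25, 0.301 and 0.473 CPM (3.97 ± 0.41). Endothelial markers summed to 59.4 to 65.2 and 42.4 to 57.7 CPM (2 of 9 tested higher), fat cell markers to 16.1 to 21 and 18.3 to 32.7 CPM (1 of 6 lower), and muscle markers to 29 to 36.6 and 17.7 to 26 CPM (2 of 6 higher). Of the endothelial, fat cell and muscle markers, 0 stood above background, and the receptor gene background was itself higher in 67NR. Whether other cells contributed to Itgb2 or Lyz2 was not tested. Xist, the RNA that silences an X chromosome, was present in both lines, at 375, 361 and 352 CPM in 67NR and 619, 698 and 670 CPM in T11 (-0.87 ± 0.09).

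Some genes were far lower in 67NR than in each of the other lines. By a rule set after levels had been seen, a level at least 8 times below that of each of the other 7 lines, all at 20 CPM or more, 12 genes qualified in 67NR and 2 in T11. Tmsb4x, thymosin beta 4, which binds actin monomers (chrX:167207093-167209315), read 0, 0.609 and 0.226 CPM in 67NR, averaged 53.2 CPM in T11 and ranged from 21.5 to 156 CPM over the other 7 lines (67NR against T11, -7.42 ± 0.33). Tmsb4x has processed copies in the genome, so its counted level is uncertain. Marcksl1, a substrate of protein kinase C (chr4:129513581-129515985), averaged 0.787 against 64.7 CPM (-6.33 ± 0.23). Sumo3, a ubiquitin-like modifier, read 14.3, 13.8 and 15.6 CPM against a mean of 145 CPM (-3.32 ± 0.12), Crtap, of collagen proline hydroxylation, averaged 2.52 against 74.8 CPM (-4.87 ± 0.18), and Tsnax, translin-associated factor X, 2.55 against 80 CPM (-4.97 ± 0.17). The others were Casc4, Rgs19, Fam135a, Gyg, Pcgf6, Ergic3 and Zfp280d. They lie on 9 chromosomes. The nearest genes on each side with a mean of at least 20 CPM over the lines, 24 in all, differed between 67NR and T11 by -0.96 to 1.52, and 22 of them by less than 1 in size. 67NR was at least 8 times above all other lines in 5 genes, Csn3, Akr1c13, Gm2373, Dach2 and Klhl4. Dach2 and Klhl4 are both on chrX, with starts at 113297510 and 114474333.

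T11 stood at least 8 times above all other lines in 11 genes. Selp, P-selectin, read 124, 131 and 149 CPM in T11 and at most 6.38 CPM as the mean of another line (-4.56 ± 0.17), and Glp1r, the receptor of an incretin hormone, 52.7, 64.7 and 45.4 CPM and at most 4 CPM (-3.77 ± 0.21). Esm1, Bmp2, Col1a2, Hoxa9, Smoc2, Tro, C1ql3 and Lrch2 were among the others. The 2 genes with the reverse pattern in T11 were Igfbp4 and Gm4944. By the stricter rule of at least 10 CPM in each library of a line and at most 3 counts over the 3 libraries of the other, 2 genes were on in 67NR and off in T11, Mettl7b and Gm6880, and 0 the other way. The limit is on raw counts, so it is easier to meet in T11, whose libraries held fewer counts.

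**Figure D5:**
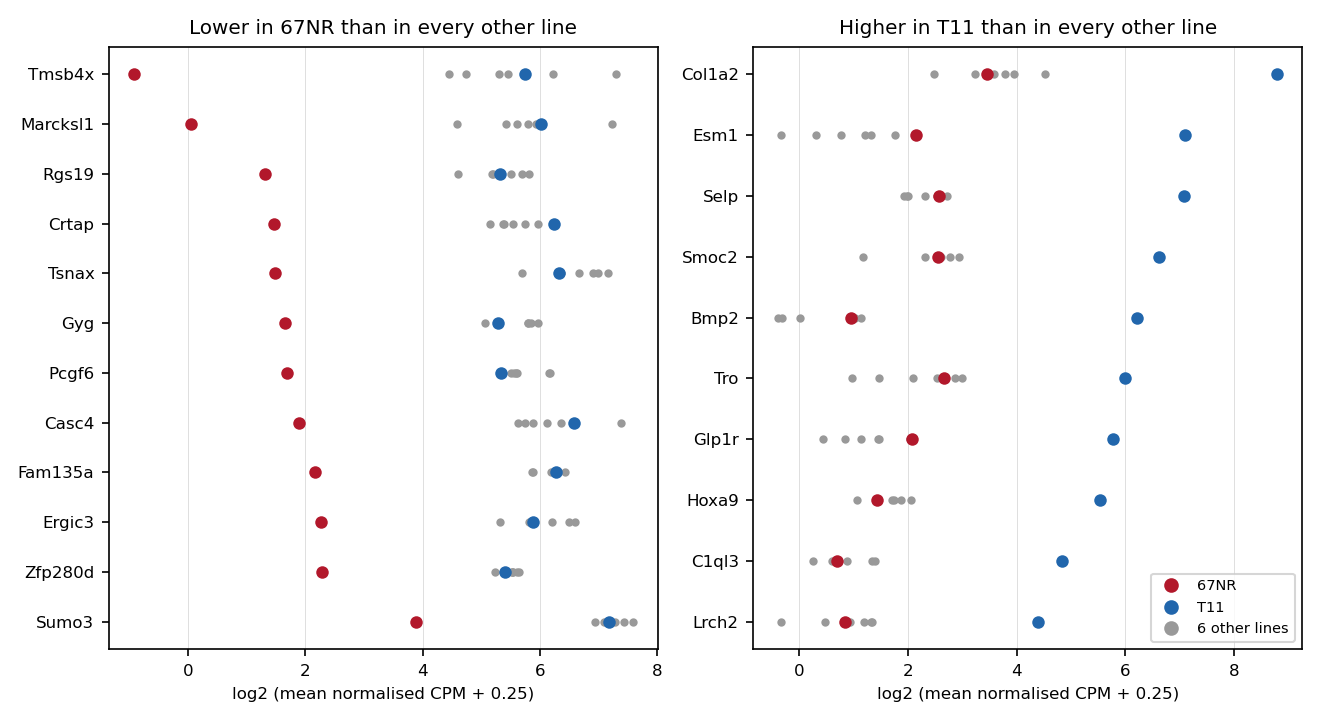
Mean level in each of 8 lines, on a log2 axis of normalised CPM with 0.25 added, for the 12 genes that are lower in 67NR than in every other line (left) and 10 of the 11 that are higher in T11 (right); grey points are the 6 other lines. Tmsb4x and Marcksl1 lie lowest in 67NR, at 0.278 and 0.787 CPM.

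The share of differing genes varied between chromosomes. Of the 7678 genes that have a position and a mean log2 CPM reaching 4, 29.5% were higher and 36.8% lower in 67NR, with a median of -0.07. On chromosome 8, 309 of 439 genes were lower in 67NR (70.4%) and 34 higher, with a median of -0.60. On chromosome 10, 264 of 397 were higher (66.5%) and 54 lower, with a median of 0.55. Chromosome 6, which carries the Hoxa cluster and Col1a2, had a median of -0.39 and chromosome 12 one of -0.36, while chromosome 15, which carries Myc, had 0.25 and 150 of 315 genes higher in 67NR. Trp53 lies on chromosome 11, whose median was 0.16. These shares are descriptions, since neighbouring genes are not independent replicates.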

How the data were processed

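The authors deposited 1 table of raw counts per gene symbol. The submitters' processing notes name bcl2fastq 2.17, STAR 2.4.2a and the build mm10. The counting program, its annotation and strand are not given in the sources used here. Per the labels, total RNA was extracted with a Direct-zol kit, and libraries were made by the method of Sheng and colleagues. Of the table's names, 22750 were GENCODE M21 symbols, 916 were older synonyms and 388 had no match. Rn45s, ribosomal RNA, took 11.8% to 12.5% of counts in 67NR and 5.69% to 10.7% in T11.

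Groups follow the sample titles. The column named PyMTE was taken as the PyMT-N group. All 24 cultured-line libraries were fitted together in edgeR 4.0.16 (R 4.3.3) with TMM factors, filterByExpr (minimum count 10, total 15), the quasi-likelihood test of 67NR minus T11, and glmTreat for differences beyond 2-fold, with Benjamini-Hochberg adjustment over all genes tested and calls at an adjusted p under 0.05. A gene stood above background at 10 times the receptor level per exon base, in the mean over the libraries of both lines. Gene lists are described by counts and medians. Data were also simulated for 18348 genes with the library sizes of 67NR and T11 and the same mean per gene in both lines. Of these genes, 100 were then changed by each fold. In them, 65% of 2-fold and 82% of 4-fold changes were recovered, and 5.16% of calls were false. In the real data 43.5% of genes were called, so these rates need not hold there. Replicates differed by a chi-square per degree of freedom of 1.31 to 1.43 in 67NR and 1.86 to 4.74 in T11, and none were identical. The 67NR libraries thus varied less beyond counting noise than those of T11. Tables were made with Python 3.11.15 and pandas 2.3.3. Alternatives were other factors, filters and sets of libraries, a replicate block, DESeq2 1.42.0, leaving out each library, and genes above background only, the last added after values were seen.

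The comparison and its gene lists were chosen with earlier results of these data known. The genes named are the 12 higher and 12 lower with the largest difference among those beyond 2-fold, with a mean log2 CPM of at least 4, levels that do not overlap and no predicted or clone name, plus members of the lists and a fixed set: Trp53, Cdkn1a, Cdkn2a, Xist, Igf2, H19, Vim, Zeb1, Cdh1, Epcam, Ccl2, Csf1, Csf2, Csf3, Cxcl5, Cxcl2 and Cxcl1. Genes of the line-specific rule, of the Myc region and of the on and off rule were found from their values. Some genes that meet these rules enter the counts but are not reported by name here.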

Additional observations from a re-analysis of the deposited data

How the results depend on the processing

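The counts of genes called in each direction stayed within 1.5 times their main values under every alternative run. Leaving out 1 library gave 3354 to 3657 genes higher and 3646 to 3861 lower in 67NR, and beyond 2-fold 607 to 656 higher and 697 to 735 lower. None of the calls, made again under an alternative, had the opposite sign. Factors taken from genes of at least 10 CPM moved the median difference by 0.08, and 54.8% of calls were then higher in 67NR, against 49.1%. Same-numbered libraries of the lines did not deviate together (correlations 0.010, 0.027 and 0.013), and the replicate block, fitted on the 21 numbered libraries, gave 3909 higher and 4002 lower, and beyond 2-fold 689 and 751. Of the 24 genes named by the ranking and the fixed set, 2 changed call, Cdh1 (-0.73, without 67NR replicate 3) and Csf2 (1.78, without T11 replicate 1).

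With only the 6 libraries fitted, 1 class I gene was lower instead of 2, and 2 monocyte signals were lower instead of 1. With the stricter filter of 5 CPM, 1 class I gene was lower, 8 Hox genes were lower instead of 19, and 3 neutrophil signals were higher instead of 6. Among genes above background, 3 p53 pathway genes were lower instead of 5, 10 interferon-response genes instead of 17, 1 class I gene instead of 2, and 8 Hox genes instead of 19. Because that limit is on the mean over both lines, a gene silent in 67NR can pass it through T11. Leaving out 1 library gave 16 to 17 p53 pathway genes higher and 4 to 5 lower, 14 to 17 interferon-response genes lower and 4 to 6 higher, 11 to 12 class I genes higher, and 18 Hox genes lower in each case. With a limit of 0 instead of 3 summed counts, 0 genes were on in 1 line and off in the other, and with a limit of 10 there were 9 on in 67NR and 11 on in T11. The lower depth of T11 limits what can be said of genes under a few CPM.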

Other observations

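At a limit of 10 summed counts, the genes with at least 10 CPM in each 67NR library and no more counts than the limit in T11 were Lyz2, Mettl7b, Ctla2b, Snora2b, S100a16, Alox5ap, 1700012B09Rik, Pnma5 and Gm6880. Pnma5 averaged 99 CPM in 67NR and had 5 counts in T11. Those with the reverse pattern were Fam110c, Crip1, Hist1h2bc, Sox2, Isg15, Hspb1, Hoxa11os, Cyba, Itm2a, Arxes2 and Tmsb4x. Sox2, a stem cell transcription factor, averaged 45.1 CPM in T11 and had 10 counts in 67NR. Hspb1, the small heat shock protein Hsp27, averaged 17.9 CPM in T11 and had 4 counts in 67NR, and Cyba, a subunit of NADPH oxidase, averaged 17.4 CPM and had 9.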
